A study of Mus musculus with 8 samples.

Results

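The genes described here are 40 genes of TGF-beta, BMP and activin signalling, measured on arrays of cultured mouse spermatogonial stem cells, which renew themselves and give rise to sperm. They were chosen by name, from a list of ligands, receptors, Smads, antagonists and latent TGF-beta binding proteins, by a rule that uses no measured value, although earlier results of these data were known when the list was made. A gene entered if a probe set of the array, the group of short probes that reports a transcript, carried its symbol alone. All 40 did, with 1 probe set each, among 28944 probe sets tested.

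The series holds 8 arrays in 3 groups. The serial-transplant long cultures (n = 2) held stem cells that had gone through successive transplantation into recipient testes, with a donor age labelled 1500 days, and were kept for 14 to 18 months. The young long cultures (n = 3) came from 8-day-old donors and were kept for the same 14 to 18 months. The young short cultures (n = 3) came from donors of that age as well but were kept for 7 to 10 weeks. Donor age and serial transplantation come together in the first group and cannot be told apart. The sources used here do not give strain, sex, genotype, medium or any feeder cells, nor the way in which stem cells were separated from the cultures. Replicates may be technical, as no label ties them to separate donors or cultures, and p-values reflect no more than the spread between arrays. Values are log2 RMA signals, in which a difference of 1 is a 2-fold difference in signal. They have no detection call, and the median of all values, 6.94, serves as a mark of dim signals. Levels of different genes cannot be compared, because each probe set has its own efficiency.

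The pathway works in the same way for its 3 branches. A ligand dimer brings together type I and type II receptor kinases, the type I kinase phosphorylates receptor Smads (Smad2 and Smad3 for TGF-beta and activin; Smad1, Smad5 and Smad9 for BMPs), and these enter the nucleus with Smad4. Secreted TGF-beta is held latent in the matrix by binding proteins, antagonists such as follistatin, gremlin, noggin and chordin trap activin or BMPs outside the cell, and Smad6 and Smad7 damp the signal inside it. In the mouse testis, BMP4 and activin A act on spermatogonia, and BMP4 is known to promote their differentiation.

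In young long against young short cultures, 9 of the 40 genes passed an adjusted p of 0.05 in limma's moderated test, adjusted over all probe sets, and 8 of the 9 fell. The falls were in the TGF-beta type II receptor Tgfbr2, the co-receptor Tgfbr3, the latent TGF-beta binding proteins Ltbp2 and Ltbp3, the activin subunit gene Inhba, the BMP antagonist Grem1, the type I receptor Acvrl1 and the TGF-beta and activin Smad, Smad3. The 1 rise was in Chrd, the BMP antagonist chordin. The share that passed, 22.5%, stands beside 11.3% of all probe sets, made up of 5.43% higher (1573) and 5.83% lower (1687). Centring the arrays on their medians turned that split to 1970 higher and 1331 lower. The arrays of the groups did not overlap for 18 of the 40 genes, or 45%, against 31.4% of all probe sets. The median log2 change of the 40 genes was -0.19, and that of all probe sets -0.04. Without young long replicate 3 the count was 3 genes, and without young long replicate 1 it was 4. Calls over all 28944 probe sets fell as well, from 3260 to 1085 and 1383. Keeping control probe sets in the test ended the calls of Acvrl1, Smad3, Grem1 and Chrd. Tgfbr2, Ltbp2 and Ltbp3 passed with each of the 8 arrays left out in turn and under every other setting tried.

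In serial-transplant long against young short cultures, 7 of the 40 genes passed, or 17.5%, and all 7 were lower in the serial-transplant cultures. They were Tgfbr2, Tgfbr3, Ltbp2, Ltbp3, Inhba, Grem1 and Fst, which encodes the activin-binding protein follistatin. Of all probe sets 8.73% passed, 3.58% higher (1037) and 5.15% lower (1491), a split that centring turned to 1294 and 1242. The arrays did not overlap for 25 of the 40 genes, or 62.5%, against 37.3% of all probe sets. The median change was -0.17, against -0.0032 over all probe sets. All 7 calls rest on serial-transplant replicate 2: without it none of the 40 genes passed, and the adjusted p of these 7 lay between 0.0809 and 0.178. This comparison shares the young short arrays with the comparison of young long cultures, so a gene that passed in both was not observed independently.

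Between serial-transplant long and young long cultures no gene of the 40 passed limma's test, and no probe set of the array did, a background of 0%. At an unadjusted p under 0.05 there were 7 of the 40 genes and 2079 of the 28944 probe sets, and the smallest adjusted p among the 40 genes was 0.426, for Fst. Weighting the arrays by their quality, which gave 22 calls over all probe sets, also called none of the 40. The differences lay between -0.60 for Fst and 0.44 for Bmp6, with a median of -0.07 against 0.02 over all probe sets. The arrays of the groups did not overlap for 15 of the 40 genes, or 37.5%, against 25.7% of all probe sets. For 39 of the 40 genes the 95% interval of the difference lay within 1 log2 unit on either side of 0, and for 21 within 0.5. The exception was Tgfbr3, with a lower bound of -1.06.

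**Figure D1:**
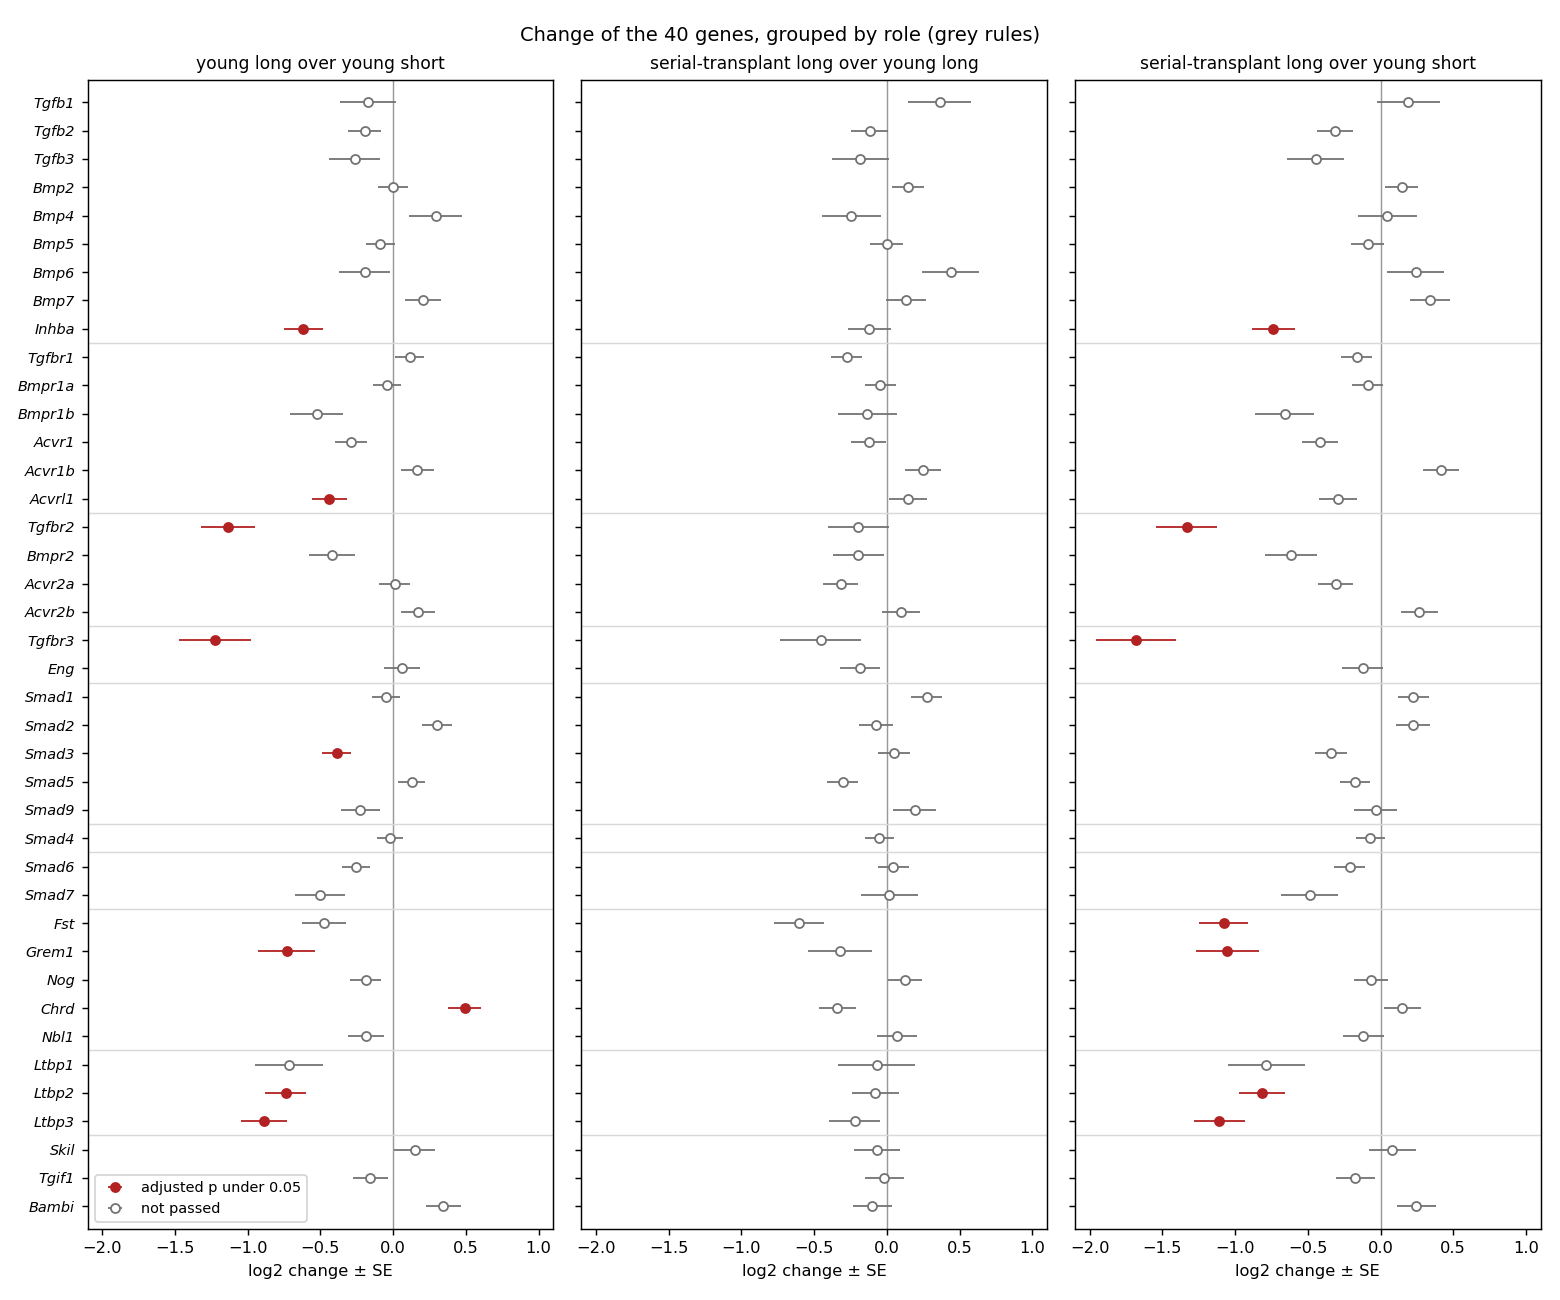
Log2 change (horizontal axis) with its standard error for each of the 40 genes, listed by role from ligands at the top to corepressors and the decoy receptor at the bottom, in the 3 comparisons. Filled red points passed an adjusted p of 0.05 (9, 0 and 7 genes in the panels from left to right), and most of these lie left of 0, with Chrd as the only filled point to the right.

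The labelled cell type was checked against marker lists. All 20 markers of undifferentiated spermatogonia and all 14 core germ cell markers were measured and none was below 6.94 in all groups. Of all probe sets, 11.3% passed in young long and 8.73% in serial-transplant long against young short cultures. In young long against young short cultures, 4 of the 20 rose and 4 fell, and of the 14 core germ cell markers 6 rose and 1 fell. Nanos3, which rose, is on both lists, and Id4, which fell, is a marker of undifferentiated spermatogonia and also one of the pathway targets described further on. Most markers of fibroblasts and peritubular myoid cells were also bright. Of 22 measured out of 23, 14 fell and 1 rose (Myh11) in young long against young short cultures, with a median change of -0.71, and 17 fell in serial-transplant long against young short cultures, with a median of -1.07. None passed between the long cultures, where the median was -0.26. Their summed linear signal was 16720 to 24950 in serial-transplant long, 24849 to 25747 in young long and 37627 to 56176 in young short cultures. Of these markers, Lum was far below 6.94 in every array, at 3.18 to 3.73. Tagln was also below it in every array, at 5.70 to 6.55, and Myh11 lay near it, at 6.51 to 7.14. In young long against young short cultures, 4 of 11 macrophage, 3 of 6 measured Leydig cell and 2 of 13 Sertoli cell markers fell and 1 Sertoli cell marker rose, while none of 9 endothelial markers passed. The summed signal of the macrophage markers was 606 to 705 in serial-transplant long, 609 to 633 in young long and 955 to 1370 in young short cultures. Below 6.94 in all groups were 7 of the macrophage, 4 of the Leydig cell, 6 of the Sertoli cell and 8 of the endothelial markers, Amh and Fshr of Sertoli cells among them. Young short replicate 2 correlated less well with its own group (r 0.991 and 0.990) than the other 2 arrays did with each other (0.996). In a bulk sample, fewer cells of a type and less RNA per cell cannot be told apart.

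The 9 ligand genes include the TGF-beta isoforms Tgfb1, Tgfb2 and Tgfb3, the BMP genes Bmp2, Bmp4, Bmp5, Bmp6 and Bmp7, and Inhba, which encodes the beta A subunit shared by activin A and inhibin A. Of all probe sets, 11.3% passed in young long and 8.73% in serial-transplant long against young short cultures. Of the 9 ligand genes 11.1% passed in each, and Inhba was the only 1. Its log2 signal was 6.55 and 6.30 in serial-transplant long, 6.45, 6.66 and 6.53 in young long, and 7.26, 7.33 and 6.89 in young short cultures. All 5 long-culture arrays lay below all 3 short-culture arrays, and in both long groups the mean was under the 6.94 mark, so part of the signal there can be background. Inhba fell by 0.62 ± 0.13 log2 units (SE) in young long against young short cultures (adjusted p = 0.0145, limma), a level 1.53-fold lower, and by 0.74 ± 0.15 in serial-transplant long against young short cultures (adjusted p = 0.0120, limma). The first call was lost without young long replicate 1 or 3, and the second without serial-transplant replicate 2.

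Among the other ligands, Tgfb2, Bmp2, Bmp4 and Bmp5 were below 6.94 in all 3 group means. The arrays of Tgfb2 lay between 6.01 and 6.60, those of Bmp2 between 4.95 and 5.24 and those of Bmp5 between 5.07 and 5.33, and no comparison of these genes passed. Tgfb3 lay between 7.41 and 8.43, with differences of -0.27 and -0.45 for young long and serial-transplant long against young short cultures (adjusted p = 0.367 and 0.201, limma). Tgfb1 gave 9.65 and 9.37 in serial-transplant long, 8.97, 9.07 and 9.39 in young long, and 9.57, 8.82 and 9.56 in young short cultures. Its groups overlapped, and the difference of young long over young short cultures was -0.17, with a 95% interval of -0.60 to 0.25. Bmp4 gave 6.16 and 6.06 in serial-transplant long, 6.75, 5.97 and 6.35 in young long, and 6.33, 5.83 and 6.03 in young short cultures, all under the mark and overlapping. Bmp6 had the 2 serial-transplant arrays close together, at 8.02 and 8.08, above the young long arrays at 7.21, 7.72 and 7.92. The young short arrays, at 8.06, 7.56 and 7.81, overlapped with both, and no comparison of Bmp6 passed (adjusted p between 0.524 and 0.69, limma). Bmp7, at 8.13 and 8.25 in serial-transplant long and 8.00, 7.72 and 7.82 in young short cultures, did not overlap between these groups, with a difference of 0.34 and an adjusted p of 0.174 (limma).

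The latent TGF-beta binding proteins, which are matrix proteins related to fibrillin, gave 3 negative differences against young short cultures in both long groups, of which those of Ltbp2 and Ltbp3 passed. That is 66.7% of 3 genes in each, where 11.3% (young long) and 8.73% (serial-transplant long) of all probe sets passed. Ltbp1 and Ltbp3 tether latent TGF-beta to the matrix, while Ltbp2 is a matrix protein of the same family that does not bind it. Ltbp3 gave 8.88 and 8.50 in serial-transplant long, 8.94, 8.92 and 8.89 in young long, and 9.96, 10.02 and 9.43 in young short cultures. Ltbp2 gave 7.26 and 6.86 in serial-transplant long, 7.17, 7.18 and 7.07 in young long, and 7.91, 8.12 and 7.62 in young short cultures. For both genes every long-culture array was below every short-culture array, and young short replicate 3 was the lowest of its group. In young long against young short cultures Ltbp3 fell by 0.89 ± 0.16 log2 units, to a level 1.85-fold lower (adjusted p = 0.00659, limma), and Ltbp2 fell by 0.74 ± 0.14, or 1.67-fold (adjusted p = 0.00915, limma). Against young short cultures the serial-transplant falls were 1.11 ± 0.17 for Ltbp3 and 0.82 ± 0.16 for Ltbp2 (adjusted p = 0.00513 and 0.0105, limma), both lost without serial-transplant replicate 2. Ltbp1 gave 8.37 and 8.43 in serial-transplant long, 8.63, 8.41 and 8.36 in young long, and 9.16, 9.82 and 8.58 in young short cultures. The young long and young short arrays of Ltbp1 overlapped through young short replicate 3, and its differences of -0.72 and -0.79 against young short cultures did not pass (adjusted p = 0.0758 and 0.0965, limma).

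The type II receptors are Tgfbr2 for TGF-beta, Bmpr2 for BMPs, and Acvr2a and Acvr2b for activins and some BMPs. Tgfbr2 gave 8.89 and 8.17 in serial-transplant long, 8.80, 8.74 and 8.64 in young long, and 9.89, 10.16 and 9.54 in young short cultures. The 5 long-culture arrays lay below the 3 short-culture arrays, and the 2 serial-transplant arrays were further apart than any 2 young long arrays. Tgfbr2 fell by 1.14 ± 0.19 log2 units in young long against young short cultures, to a level 2.20-fold lower (adjusted p = 0.00502, limma), the smallest adjusted p of the 40 genes there. In serial-transplant long against young short cultures it fell by 1.33 ± 0.21, or 2.52-fold (adjusted p = 0.00510, limma), which was 0.0899 without serial-transplant replicate 2. Between the long cultures its difference was -0.20, with an interval of -0.66 to 0.26.

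None of the other type II receptors passed. Bmpr2 gave 9.02 and 8.96 in serial-transplant long, 9.17, 9.25 and 9.15 in young long, and 9.36, 10.04 and 9.41 in young short cultures. The 3 groups of Bmpr2 did not overlap and lay in that order from low to high, with young short replicate 2 far above the rest, and the adjusted p was 0.118 and 0.0557 for young long and serial-transplant long against young short cultures (limma). Acvr2a, at 8.43 and 8.57 in serial-transplant long, 8.99, 8.74 and 8.71 in young long and 8.73, 8.89 and 8.80 in young short cultures, had its lowest values in the serial-transplant arrays (adjusted p = 0.615 against young long and 0.158 against young short cultures, limma). Acvr2b had a difference of 0.17 in young long over young short cultures, with an interval of -0.08 to 0.42, and its arrays overlapped there.

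Tgfbr3, or betaglycan, is a co-receptor that presents TGF-beta to the type II receptor and also binds inhibin, and Eng, or endoglin, is a co-receptor best known from endothelium. Tgfbr3 gave 9.32 and 8.49 in serial-transplant long, 9.64, 9.22 and 9.22 in young long, and 10.70, 10.99 and 10.07 in young short cultures. No long-culture array reached the short-culture arrays. Tgfbr3 fell by 1.23 ± 0.25 log2 units in young long against young short cultures, a level 2.34-fold lower (adjusted p = 0.0114, limma), and by 1.68 ± 0.28, or 3.21-fold, in serial-transplant long against young short cultures (adjusted p = 0.00581, limma). These are the largest changes among the 40 genes in the 2 comparisons. The first was lost without young long replicate 3 (adjusted p = 0.0544, limma) and the second without serial-transplant replicate 2 (0.107). Eng gave 6.87 and 7.05 in serial-transplant long, 7.20, 6.93 and 7.31 in young long, and 7.25, 6.98 and 7.03 in young short cultures, close to the mark of dim signals and overlapping in all comparisons.

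Of the 6 type I receptors, Acvrl1, a kinase best known from endothelium, passed in 1 comparison. That is 16.7% in young long against young short cultures, where 11.3% of all probe sets passed. Acvrl1 gave 7.18 and 6.89 in serial-transplant long, 6.88, 6.95 and 6.84 in young long, and 7.17, 7.52 and 7.29 in young short cultures. The young long arrays lay below the young short arrays, while serial-transplant replicate 1 lay within the short-culture range. Acvrl1 fell by 0.44 ± 0.12 log2 units in young long against young short cultures (adjusted p = 0.0377, limma). This call was lost without any 1 of the 3 young long arrays or without young short replicate 2 or 3, and also with control probe sets kept, quantile normalization, centring or the replicate block. The adjusted p reached 0.136 with an array left out. Its young long mean, 6.89, was under the 6.94 mark.

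The remaining type I receptors gave no call. Bmpr1a, the main BMP type I receptor, gave 10.73 and 10.61 in serial-transplant long, 10.78, 10.61 and 10.77 in young long, and 10.78, 10.73 and 10.77 in young short cultures. All 8 arrays of Bmpr1a lay between 10.61 and 10.78, and the interval of young long over young short cultures was -0.25 to 0.17. Tgfbr1, the TGF-beta type I receptor, had a difference of 0.11 in the same comparison, with an interval of -0.10 to 0.32. It gave 8.89 and 8.83 in serial-transplant long against 9.27, 9.04 and 9.11 in young long cultures, which did not overlap (adjusted p = 0.622, limma). Whether the change of Tgfbr1 differs from that of its partner Tgfbr2 was not tested. Acvr1b, the activin type I receptor, gave 8.85 and 8.96 in serial-transplant long, 8.54, 8.68 and 8.74 in young long, and 8.55, 8.29 and 8.63 in young short cultures. The serial-transplant arrays of Acvr1b were the 2 highest, with a difference of 0.41 over young short cultures that did not pass (adjusted p = 0.067, limma). Acvr1, another BMP and activin type I receptor, gave differences of -0.29 and -0.42 for young long and serial-transplant long against young short cultures (adjusted p = 0.116 and 0.0596, limma). Bmpr1b was under the 6.94 mark in every array, between 4.92 and 6.16, and its differences of -0.53 and -0.66 in the same comparisons did not pass (adjusted p = 0.0891 and 0.0702, limma).

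Promoters were chosen by the smallest adjusted p in young long against young short cultures. Tgfbr3, next after those shown, had no window in the RefSeq table used. The promoters of Tgfbr2, Ltbp3 and Ltbp2 are shown. Each is 250 bases before to 50 bases after the RefSeq start in GRCm38.p6, 5′ to 3′ on the strand of the gene. Tgfbr2 lies at chr9:116175314-116175613 on the minus strand, Ltbp3 at chr19:5740650-5740949 on the plus strand and Ltbp2 at chr12:84876442-84876741 on the minus strand. Capitals mark matches, on either strand, to the Smad box CAGAC or to the Sp1 box GGGCGG.
Tgfbr2: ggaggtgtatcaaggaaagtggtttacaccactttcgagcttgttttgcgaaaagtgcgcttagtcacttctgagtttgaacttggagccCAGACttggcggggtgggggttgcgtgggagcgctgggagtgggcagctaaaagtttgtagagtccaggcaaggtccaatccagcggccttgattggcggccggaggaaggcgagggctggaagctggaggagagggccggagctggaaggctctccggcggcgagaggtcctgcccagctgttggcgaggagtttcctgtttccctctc
Ltbp3: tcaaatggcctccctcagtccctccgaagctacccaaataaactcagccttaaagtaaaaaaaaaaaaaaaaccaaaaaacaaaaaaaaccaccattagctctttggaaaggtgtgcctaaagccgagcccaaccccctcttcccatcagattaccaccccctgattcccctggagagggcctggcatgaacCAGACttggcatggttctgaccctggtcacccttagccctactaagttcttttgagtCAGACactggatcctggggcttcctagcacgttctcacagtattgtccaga
Ltbp2: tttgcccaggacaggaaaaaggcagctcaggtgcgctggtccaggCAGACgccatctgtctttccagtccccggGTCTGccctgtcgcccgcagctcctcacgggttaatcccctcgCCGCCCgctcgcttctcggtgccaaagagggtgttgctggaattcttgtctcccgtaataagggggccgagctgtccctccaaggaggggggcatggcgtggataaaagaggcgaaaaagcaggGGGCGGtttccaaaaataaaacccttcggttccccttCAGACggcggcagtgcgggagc
CAGAC occurred 1 time in the Tgfbr2 window, 2 times in that of Ltbp3 and 3 times in that of Ltbp2, and GGGCGG occurred 2 times in that of Ltbp2 and in neither of the others. The BMP Smad box GGCGCC, searched in the same way, occurred in none of the 3, and no matches to different motifs overlapped. Of all 32851 windows in the table, 49.6% hold CAGAC, 35.7% hold GGGCGG and 11.9% hold GGCGCC, so a match to CAGAC or GGGCGG is common. Windows were found for 28 of the 40 genes, and of their 38 windows 55.3% hold CAGAC, 60.5% GGGCGG and 26.3% GGCGCC. The median GC content of all windows is 52.7%, against 59.0% for Tgfbr2, 48.0% for Ltbp3 and 61.0% for Ltbp2. Whether the shares of the 40 genes differ from those of all windows, or follow GC content, was not tested. These windows have no binding or methylation data in the series, and a match is a description of the sequence.

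Among the Smads, Smad3 was the only 1 of 8 to pass. That is 12.5% in young long against young short cultures, where 11.3% of all probe sets passed. Smad3 gave 8.67 and 8.53 in serial-transplant long, 8.64, 8.52 and 8.49 in young long, and 8.95, 9.01 and 8.86 in young short cultures. Its groups did not overlap between long and short culture. Smad3 fell by 0.39 ± 0.10 log2 units in young long against young short cultures, or 1.31-fold (adjusted p = 0.0266, limma), and the call was lost without any 1 of 5 arrays, namely the 3 young long arrays and young short replicates 1 and 2. In serial-transplant long against young short cultures the difference was -0.34 (adjusted p = 0.0796, limma).

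Smad2, the other Smad of the TGF-beta and activin branch, gave 10.04 and 10.09 in serial-transplant long, 10.19, 10.13 and 10.09 in young long, and 9.92, 9.66 and 9.94 in young short cultures. Its long-culture arrays were all above its short-culture arrays, opposite to Smad3, with a difference of 0.30 in young long over young short cultures and an adjusted p of 0.0884 (limma). Smad4, the partner of both branches, varied least, between 10.44 and 10.57 over the 8 arrays, and its interval for young long over young short cultures was -0.22 to 0.18. The BMP Smads Smad1, Smad5 and Smad9 had differences of -0.05, 0.13 and -0.23 in that comparison, none of which passed. Smad1 gave 8.21 and 8.23 in serial-transplant long against 8.05, 7.82 and 7.96 in young long cultures, and Smad5 gave 9.12 and 9.13 against 9.37, 9.45 and 9.46. The serial-transplant arrays were thus above the young long arrays for Smad1 and below them for Smad5, with adjusted p of 0.616 and 0.561 (limma).

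The inhibitory Smads are induced by the pathway in many cells and act as its feedback. Smad7 gave 8.07 and 7.81 in serial-transplant long, 7.84, 7.98 and 7.95 in young long, and 8.84, 8.01 and 8.44 in young short cultures. The young long arrays were below the young short arrays, but young short replicate 2, at 8.01, came close to the highest of them, and the difference of -0.50 did not pass (adjusted p = 0.0903, limma). Smad6 gave 6.89 and 6.80 in serial-transplant long, 6.78, 6.87 and 6.77 in young long, and 7.07, 6.96 and 7.15 in young short cultures. Its long-culture arrays were all below its short-culture arrays, and the difference of -0.26 in young long over young short cultures had an adjusted p of 0.114 (limma).

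The secreted antagonists moved in different directions. Fst gave 8.32 and 7.69 in serial-transplant long, 8.69, 8.54 and 8.60 in young long, and 9.17, 9.19 and 8.90 in young short cultures. The 3 groups of Fst did not overlap, with the serial-transplant arrays lowest and the young short arrays highest. Fst fell by 1.08 ± 0.17 log2 units in serial-transplant long against young short cultures, a level 2.11-fold lower (adjusted p = 0.00510, limma), which was 0.0809 without serial-transplant replicate 2. Against young short cultures the young long difference of -0.47 ± 0.15 had an adjusted p of 0.0674, and it passed under array weights (0.0446) and when only these groups were fitted (0.0275). Against young long cultures the serial-transplant difference was -0.60 ± 0.17, with an unadjusted p of 0.00413 and an adjusted p of 0.426 (limma).

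Grem1, or gremlin, which binds BMPs, gave 7.53 and 7.68 in serial-transplant long, 7.88, 8.00 and 7.91 in young long, and 9.15, 8.68 and 8.15 in young short cultures. The 3 groups again lay apart in that order, and the young short arrays were the most widely spread. Grem1 fell by 0.73 ± 0.20 in young long against young short cultures (adjusted p = 0.0352, limma) and by 1.05 ± 0.22 in serial-transplant long against young short cultures (adjusted p = 0.0143, limma). The first call was lost in 7 of 8 omissions, all but that of young short replicate 3, and without young short replicate 1 the change was -0.49. The second call was lost without either serial-transplant array. Both were lost when only the groups compared were fitted, and also with control probe sets kept in the test (adjusted p = 0.0920 and 0.0578, limma).

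Chrd, or chordin, was the 1 gene of the 40 with a rise that passed. It gave 7.29 and 7.22 in serial-transplant long, 7.78, 7.43 and 7.59 in young long, and 7.21, 7.04 and 7.07 in young short cultures. The young long arrays were above all others, and the serial-transplant arrays were just above the young short arrays. Chrd rose by 0.49 ± 0.11 log2 units in young long against young short cultures, or 1.41-fold (adjusted p = 0.0187, limma), and the call was lost without young long replicate 1 or 3. For serial-transplant long against young short cultures the difference was 0.15, with an interval of -0.12 to 0.42. Nog, or noggin, stayed under the mark in every array, between 6.47 and 6.87, and Nbl1, a BMP antagonist of the DAN family, lay between 6.90 and 7.42 with overlapping groups.

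The remaining genes act on the receptor or in the nucleus. Bambi, a receptor-like protein without a kinase that blocks signalling, gave 7.85 and 8.03 in serial-transplant long, 8.24, 7.90 and 7.99 in young long, and 7.77, 7.55 and 7.76 in young short cultures. Every long-culture array of Bambi was above the short-culture arrays, with a difference of 0.34 in young long over young short cultures that did not pass (adjusted p = 0.0871, limma). The Smad corepressors Skil and Tgif1 had differences of 0.15 and -0.16 in that comparison, with overlapping arrays.

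**Figure D2:**
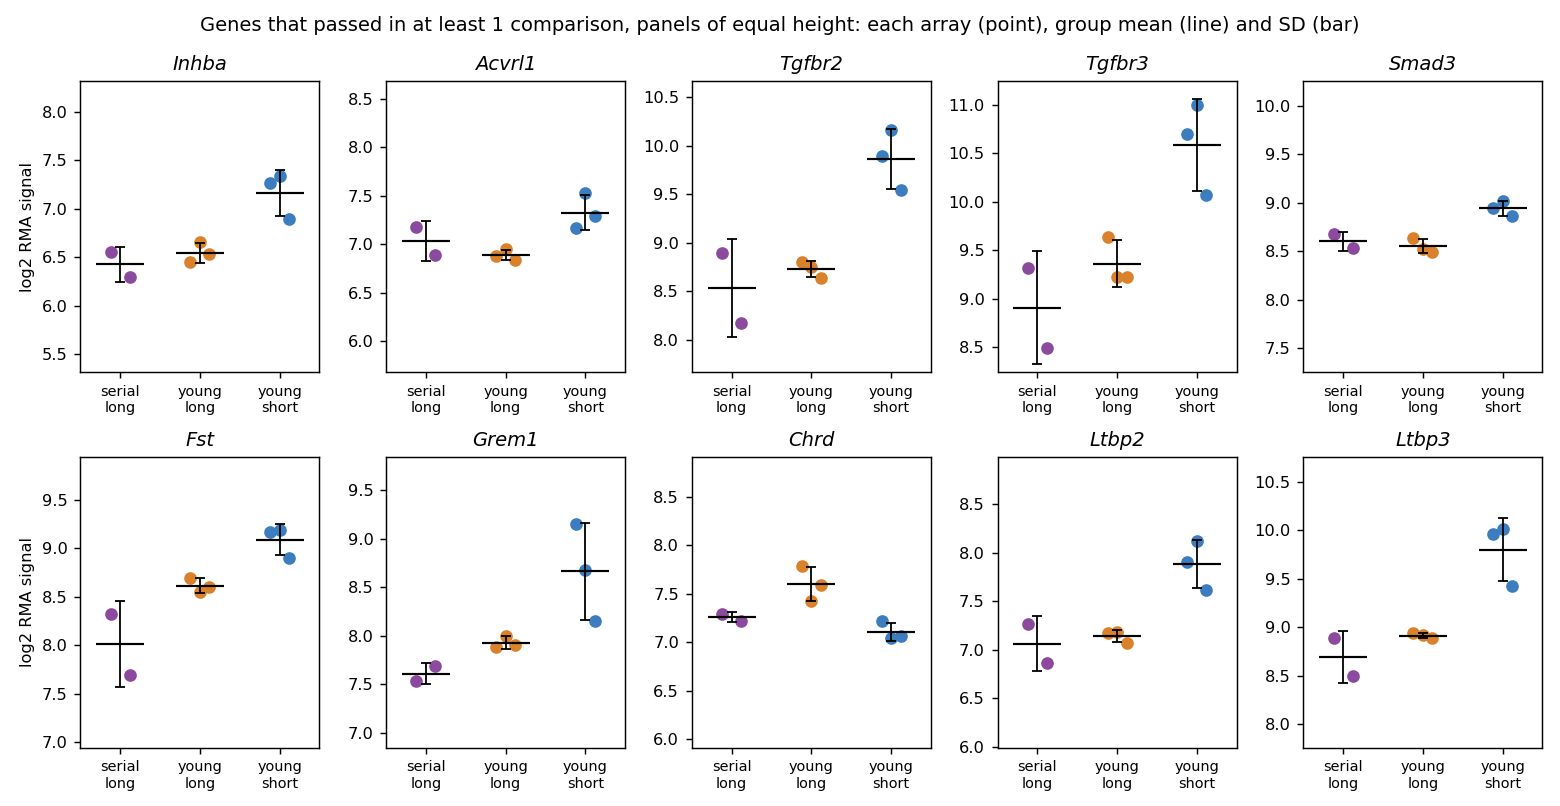
Log2 RMA signal (vertical axis, panels spanning 3 log2 units each) of the 10 genes that passed in at least 1 comparison, with each array as a point, the group mean as a line and the SD as a bar (n = 2, 3 and 3 from left to right). The young short mean is the highest in 9 panels and the lowest in that of Chrd, and serial-transplant replicate 2 is well below replicate 1 for Tgfbr2, Tgfbr3 and Fst.

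Of the 31 genes that did not pass in young long against young short cultures, 9 had an unadjusted p under 0.05, and 30 had a 95% interval within 1 log2 unit on either side of 0. The exception was Ltbp1, with a lower bound of -1.23. Intervals within 0.5 log2 units were reached by 18 of the 31. Counting those that passed, 18 of the 40 genes and 7538 of the 28944 probe sets had an unadjusted p under 0.05 there. In serial-transplant long against young short cultures, 12 of the 33 genes that did not pass had an unadjusted p under 0.05, and 30 had an interval within 1 log2 unit. With those that passed, 19 of the 40 genes and 6327 of the 28944 probe sets had such a p.

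**Figure D3:**
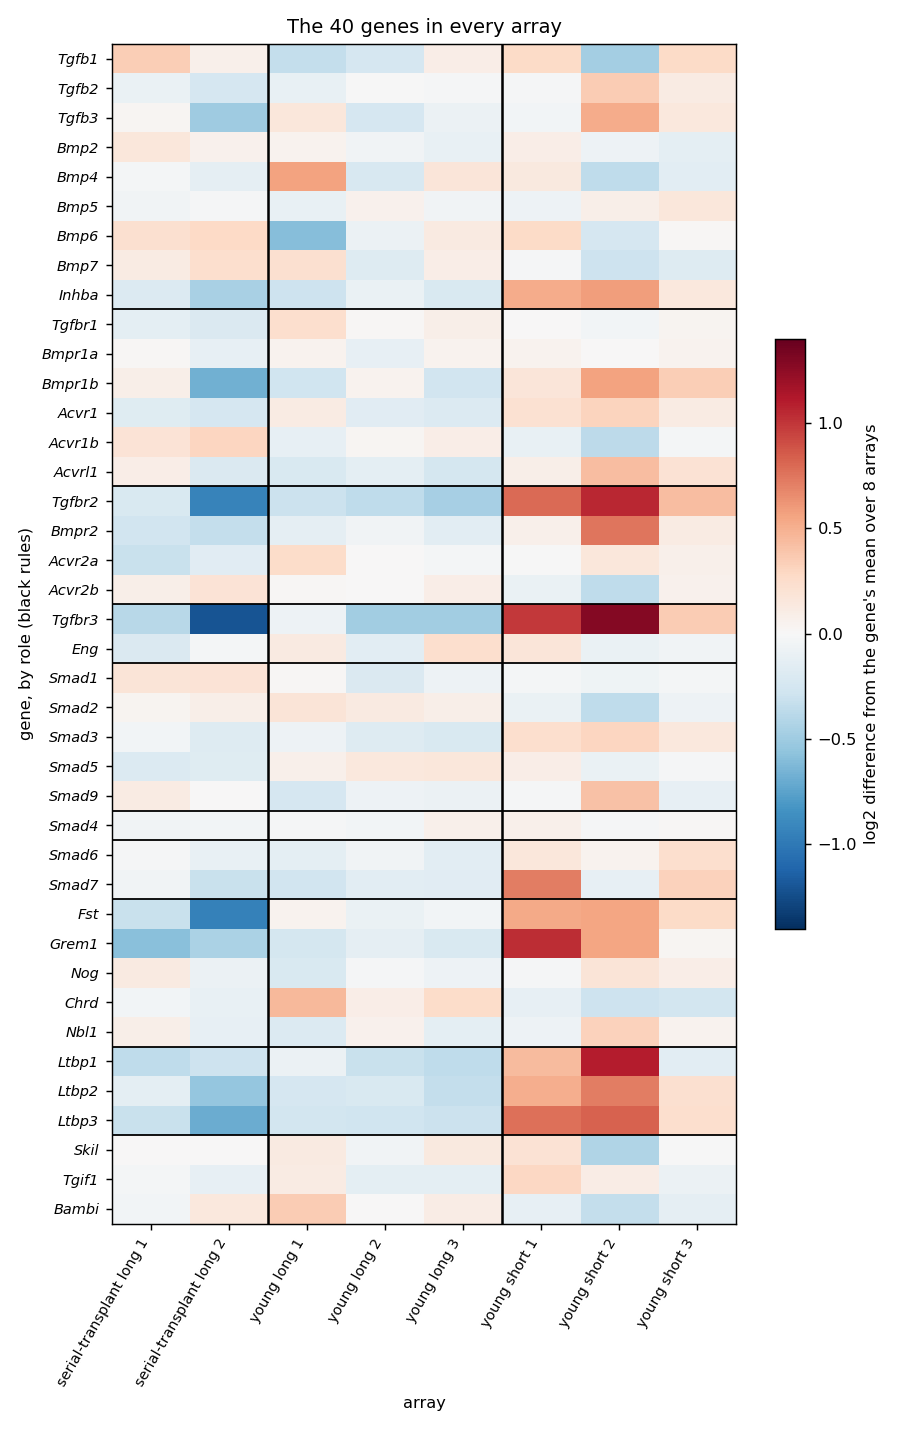
Log2 difference of each array (columns) from the mean of the gene over the 8 arrays, for the 40 genes by role (rows); red is above and blue below that mean. The strongest colours are in young short replicates 1 and 2 and serial-transplant replicate 2, in the rows of Tgfbr3, Ltbp1, Tgfbr2, Grem1 and Fst, and the row of Smad4 is nearly white.

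Fibroblast and myoid markers were low in the same arrays as the genes that fell. The median deviation of those 22 markers from their 8-array mean was -0.18 and -0.73 in serial-transplant long, -0.22, -0.17 and -0.20 in young long, and 0.45, 0.87 and 0.29 in young short cultures. The 2 arrays at the ends of that order, serial-transplant replicate 2 and young short replicate 2, were also the lowest and the highest for most genes that fell. Of the 9 genes called lower in any comparison, 8 were highest in young short replicate 2 and 6 were lowest in serial-transplant replicate 2. A gene called lower against young short cultures has to be high there, so these counts follow in part from the choice of genes. Of all 40 genes, 17 were highest in young short replicate 2, 9 were lowest in it, and 13 were lowest in serial-transplant replicate 2. Core germ cell markers ran the other way, with median deviations of 0.28 and 0.31 in serial-transplant long, 0.06, 0.07 and 0.11 in young long, and -0.20, -0.40 and -0.02 in young short cultures. The part of other cell types in the falls of Tgfbr2, Tgfbr3, Ltbp2, Ltbp3, Inhba, Fst and Grem1, and in those of other pathway genes named further on, was not tested. Without young short replicate 2, 7 of the 40 genes passed in young long and 9 in serial-transplant long against young short cultures. Of all 28944 probe sets, 2291 and 2080 passed in these comparisons without that array.

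**Figure D4:**
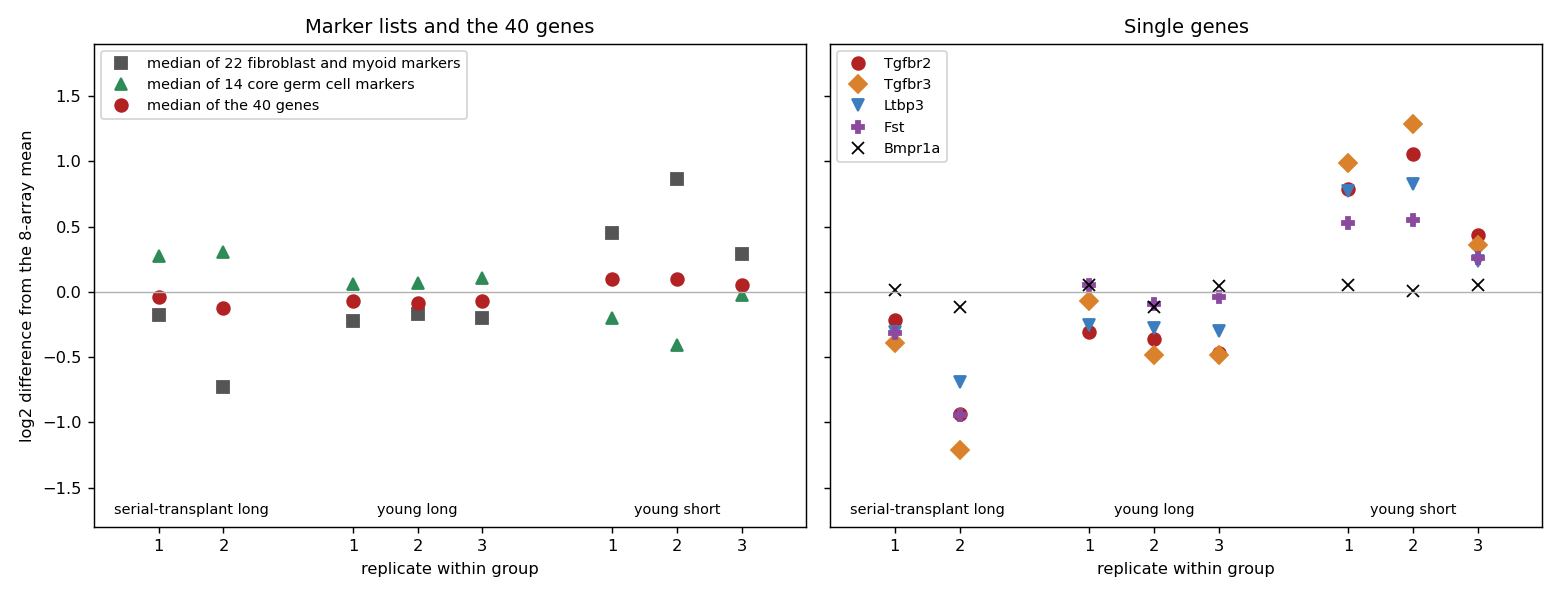
Log2 difference from the 8-array mean (vertical axis) in each array (horizontal axis), as medians of 2 marker lists and of the 40 genes (left) and for single genes (right). Squares of the fibroblast and myoid markers run from -0.73 in serial-transplant replicate 2 to 0.87 in young short replicate 2, Tgfbr2, Tgfbr3, Ltbp3 and Fst have their lowest and highest values in the same arrays, and Bmpr1a stays near 0. Of the genes called lower and not drawn, Grem1, Smad3 and Acvrl1 have their lowest values in other arrays, and Grem1 also its highest.

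Other genes of the pathway, 102 measured of 109 listed, were read beside the 40. In young long against young short cultures 21 passed, or 20.6%, against 11.3% of all probe sets. Of the 21, 5 rose and 16 fell. By role, 1 of 23 ligands, 2 of 7 receptors and co-receptors, 6 of 24 extracellular regulators, 3 of 26 intracellular regulators and 9 of 22 targets passed. The median change was -0.10 over the 102 genes and -0.31 over the 22 targets, of which 2 rose and 7 fell. Without young long replicate 1 the count was 9, without young long replicate 3 it was 7, and without young short replicate 1 or 2 it was 12. Over all probe sets the same omissions gave 1383, 1085, 2277 and 2291 calls in place of 3260. Calls for 7 genes held in all 8 omissions: Id2, Id4, Chrdl1, Ltbp4, Rgmb, Hey1 and Acta2.

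Of the 4 Id genes, BMP targets whose products inhibit basic helix-loop-helix factors, Id2 and Id4 fell and Id3 rose in young long against young short cultures, while Id1 did not pass. Id4, which also marks the stem cell state of spermatogonia, gave 8.05 and 8.13 in serial-transplant long, 8.16, 8.08 and 8.11 in young long, and 9.15, 8.67 and 8.94 in young short cultures. Its 5 long-culture arrays lay between 8.05 and 8.16, clear of the short-culture arrays, and it fell by 0.80 ± 0.12 (adjusted p = 0.00353, limma). Id2 gave 5.25 and 4.98 in serial-transplant long, 5.40, 5.16 and 5.14 in young long, and 6.32, 6.49 and 6.37 in young short cultures, all under the 6.94 mark. Id2 fell by 1.16 ± 0.11 (adjusted p = 5.74e-04, limma), the smallest adjusted p among these genes. Id3 gave 7.21 and 7.31 in serial-transplant long, 8.06, 7.52 and 7.85 in young long, and 7.24, 7.05 and 7.43 in young short cultures. Its young long arrays were above all others, and it rose by 0.57 ± 0.14 against young short cultures (adjusted p = 0.0281, limma), while the serial-transplant difference was 0.02 with overlapping arrays. The difference of Id1 between young long and young short cultures was -0.14 (adjusted p = 0.437, limma). Hey1, a target shared with Notch, rose by 0.65 ± 0.12, whereas Myc fell by 0.95 ± 0.19 (adjusted p = 0.00799 and 0.0108, limma).

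Chrdl1, a chordin-like BMP antagonist, gave 7.43 and 7.31 in serial-transplant long, 7.38, 7.22 and 7.30 in young long, and 6.27, 6.41 and 6.57 in young short cultures. Long-culture arrays were all above the mark of dim signals and short-culture arrays all below it. Chrdl1 rose by 0.89 ± 0.11 in young long against young short cultures (adjusted p = 0.00137, limma), the same direction as Chrd. Ltbp4, the fourth latent TGF-beta binding protein, fell by 0.73 ± 0.12 (adjusted p = 0.00417, limma), as Ltbp2 and Ltbp3 did. Rgmb, a BMP co-receptor, fell by 0.71 ± 0.11, and Bmper, an extracellular BMP regulator, fell by 1.01 ± 0.21 (adjusted p = 0.00450 and 0.0138, limma).

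Dcn, Col1a1, Fn1 and Acta2, which fell by 1.16, 0.70, 0.50 and 1.24 log2 units, are counted here as TGF-beta regulators or targets and are also on the list of fibroblast and myoid markers, so they belong to both counts.

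In serial-transplant long against young short cultures 24 of the 102 genes passed, or 23.5%, against 8.73% of all probe sets. Of the 24, 5 rose and 19 fell. The 12 with the smallest p were Id2, Chrdl1, Id4, Bmp1, Myc, Ltbp4, Dcn, Fn1, Itgav, Hipk2, Msx2 and Rgmb. Bmp1, a protease that cleaves chordin and procollagen, fell by 1.02 ± 0.17, and Itgav, an integrin subunit that releases TGF-beta from its latent form, fell by 0.94 ± 0.17 (adjusted p = 0.00570 and 0.00823, limma). Msx2, a BMP target, gave 7.53 and 7.95 in serial-transplant long, 6.70, 7.09 and 7.33 in young long, and 6.76, 6.75 and 6.84 in young short cultures. It was highest in the serial-transplant arrays and rose by 0.96 ± 0.18 against young short cultures (adjusted p = 0.00880, limma). Of the 24 calls, those other than Chrdl1 and Id2 were lost without serial-transplant replicate 2. Most calls over all probe sets were lost there too, in a fit with 1 array in that group.

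Between serial-transplant long and young long cultures none of the 102 genes passed limma's test, and 12 had an unadjusted p under 0.05. The smallest p belonged to Fstl1, a follistatin-like secreted protein, with 9.38 and 9.02 in serial-transplant long against 10.22, 9.88 and 9.93 in young long cultures and an adjusted p of 0.364. When only these groups were fitted, Tgfbi, a matrix protein induced by TGF-beta, passed, with 7.54 and 7.55 in serial-transplant long against 8.36, 8.31 and 8.37 in young long cultures. In that fit 15 of all 28944 probe sets passed, 14 of them lower.

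**Figure D5:**
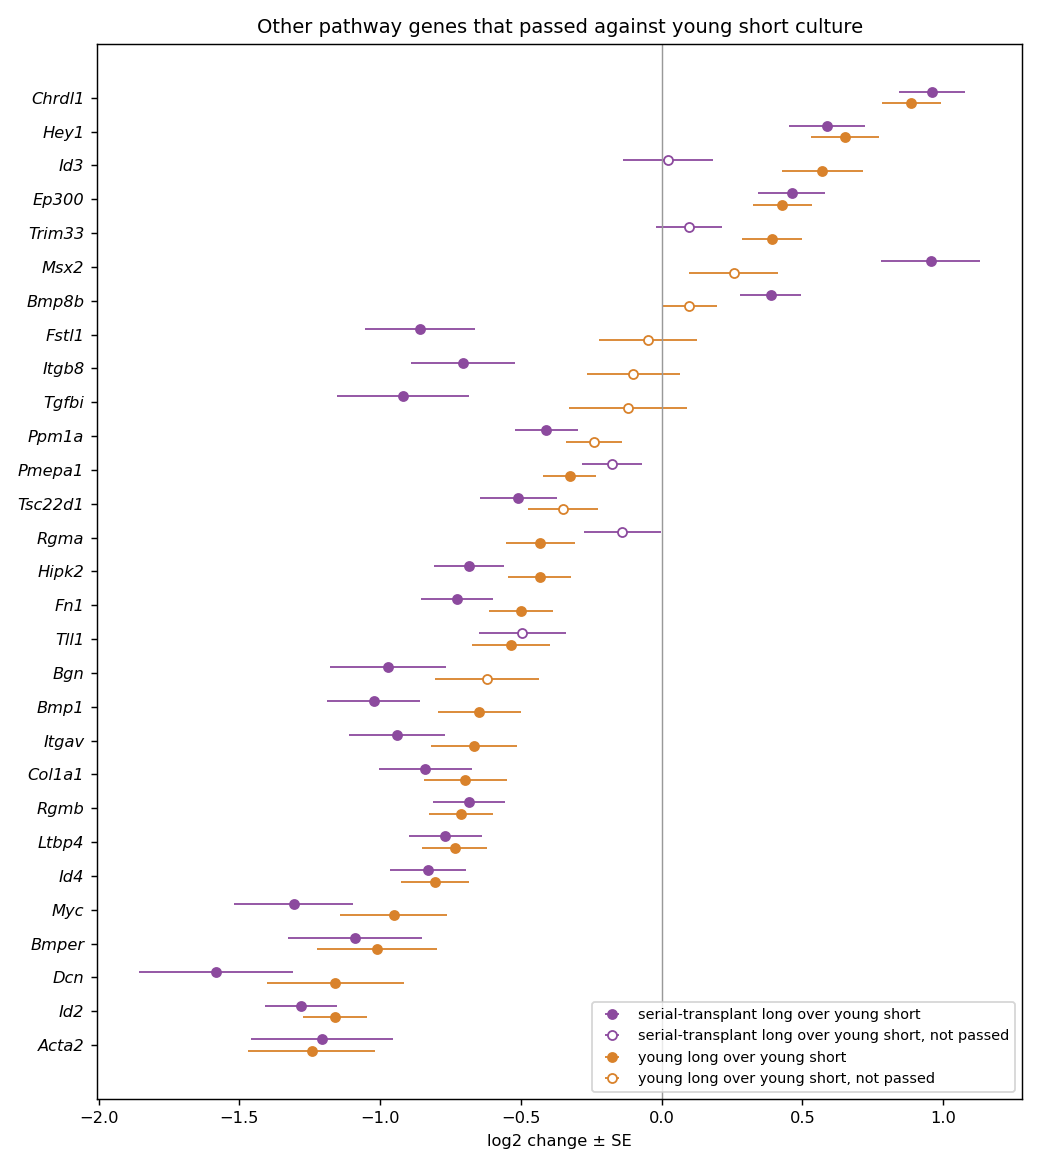
Log2 change with its standard error (horizontal axis) of the other pathway genes that passed in serial-transplant long (purple) or young long (orange) against young short cultures; open points did not pass. Chrdl1 and Hey1 are at the top with rises in both, and Id2, Dcn and Acta2 are at the bottom with falls of more than 1 log2 unit; both sets of points share the young short arrays.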

How the data were processed

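Total RNA of cultured mouse spermatogonial stem cells was measured on 8 Affymetrix arrays, 1 per sample. The deposited values are log2 signals per probe set, which the authors made by RMA in Partek 6.4, as the submitters' processing notes state. That method subtracts background, makes arrays comparable and combines the probes of a set. The log2 scale was read from the values, and no filter on probes is stated. Of 35557 rows, 6613 were taken from the numbering of their identifiers to be control probe sets and left out. Of the 28944 tested, 21789 carry 1 gene symbol in the platform annotation, 1621 several and 5534 none. Where a gene has several probe sets, the brightest over the 8 arrays was used.

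Groups follow the labels. A limma 3.58.1 model (R 4.3.3) with 1 coefficient per group over 8 arrays gave the 3 comparisons. Its moderated tests were two-sided, had 5 residual plus 6.28 prior degrees of freedom, and were adjusted by Benjamini and Hochberg's method across the 28944 probe sets, with a threshold of 0.05. The step was tested on simulated data. Errors are SE for changes and SD for group means. The number of arrays limits the precision. The 40 genes, the other pathway genes and the markers of spermatogonia, core germ cells, fibroblasts and myoid cells, Sertoli cells, Leydig cells, macrophages and endothelium were chosen with earlier results of these data known. All 40 genes are named. Those that passed are given in full. Of the other pathway genes, up to 12 with the smallest p per comparison are named. Exceptions are Id1 and Id3, given beside Id2 and Id4 though outside those 12, and Fstl1 and Tgfbi between the long cultures. Fstl1 and Tgfbi were chosen after their values were seen. Alternatives were the intensity trend, array weights, only the groups compared, dim or control probe sets, quantile normalization, centring, the mean of probe sets, the replicate block and each array left out. Promoter sequences are from a RefSeq table of GRCm38.p6, without a window for Tgfbr3 and Acvrl1.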

Additional observations from a re-analysis of the deposited data

How the results depend on the processing

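The counts of called genes were refitted under 9 other settings and with each of the 8 arrays left out in turn. No direction of a call reversed among the 40 genes, and directions of the other pathway genes were not compared between settings. In young long over young short cultures, 9 of the 40 genes and 21 of the 102 other pathway genes passed. Keeping the control probe sets in the fit left 5 and 9. Leaving out 1 array gave 3 to 10 of the 40 genes and 7 to 21 of the 102. In serial-transplant long over young long cultures, fitting only these groups called 1 other pathway gene, Tgfbi, in place of 0. Over all 28944 probe sets it called 15 in place of 0. In serial-transplant long over young short cultures, where 7 and 24 passed, leaving out 1 array gave 0 to 10 and 2 to 24, and for the other pathway genes fitting only these groups left 14 and keeping control probe sets left 13. No label states that replicate numbers pair the samples. The deviations of same-numbered young long and young short arrays from their group means correlated at 0.081, 0.176 and 0.102. Those of same-numbered serial-transplant arrays with the other groups correlated at -0.049 to -0.268, and those of differently numbered arrays at -0.281 to 0.268. With 2 or 3 arrays per group, such values cannot decide whether samples are paired. With the replicate block, 9, 0 and 9 of the 40 genes and 19, 0 and 22 of the 102 passed in young long over young short, serial-transplant long over young long and serial-transplant long over young short cultures. Centring the arrays on their medians left 8 of the 40 genes called in each comparison with young short cultures, 7 of them lower. Over all probe sets, the 3260 calls of young long over young short cultures became 5079 with array weights, 1542 with control probe sets, 1383 without young long replicate 1 and 1085 without young long replicate 3. The 2528 calls of serial-transplant long over young short cultures became 66 without serial-transplant replicate 2, 1252 when only these groups were fitted, 1079 with control probe sets and 1528 without serial-transplant replicate 1. The cause of these shifts was not tested. Leaving out an array of the serial-transplant group leaves 1 array there, which is assumed to vary like the other groups. For young long over young short cultures, either such omission gave the same fit as fitting only these groups, so these are not separate checks. All 40 genes have 1 probe set, so averaging probe sets could not change them. RMA gives no detection call, so changes of Inhba, Acvrl1 and Id2 near or under 6.94 may be understated.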

Other observations

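The 2 serial-transplant arrays differed from each other by more than the young long arrays did for several of the genes that passed. The SD over the 2 arrays was 0.51 for Tgfbr2, 0.58 for Tgfbr3, 0.44 for Fst and 0.27 for Ltbp3, against 0.08, 0.24, 0.08 and 0.02 over the 3 young long arrays. The BMP type I receptor Bmpr1b, at 5.67 and 4.92, had an SD of 0.53 against 0.19 in young long cultures. The opposite held for Bmp4, with an SD of 0.07 in serial-transplant long against 0.39 in young long cultures, and for Bmp6, with 0.04 against 0.37.

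Young long replicate 1 stood apart from the other young long arrays in several of these genes, with the highest of its group for Bmp4 at 6.75, Tgfbr3 at 9.64 and Chrd at 7.78 and the lowest for Bmp6 at 7.21. The same array gave 5.68 for Pou5f1, a transcription factor gene of undifferentiated germ cells, which lay between 7.80 and 8.72 in the other 7 arrays. Pou5f1 was picked after its values were seen.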
